A study of Mus musculus with 13 samples.

Results

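Branched-chain amino acid breakdown was followed through 10 of its enzymes, Bcat2, Bckdha, Bckdhb, Dbt, Ivd, Acadsb, Mccc1, Mccc2, Hibch and Hsd17b10, in the epididymal white fat of lean and obese mice with and without the ATP-gated channel P2X7. The enzymes were taken by name: a gene was read where a probe set was paired with its symbol alone, and the probe set with the highest mean stood for it. All 10 were measured, each by 1 probe set, among 18820 genes in all. They were picked for their place in the pathway and with earlier results of these data known.

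Male mice entered the diets at 6 weeks of age and were 18 weeks old when the fat was taken. The 4 groups were knockouts of the B6.129P2-P2rx7tm1Gab/J line (7 generations of backcrossing to B6) on a high-fat diet with 60% of energy as fat (4 arrays), the same knockout line on low-fat chow with 13% (3 arrays), wild-type C57BL/6 mice on the high-fat diet (3 arrays) and wild-type mice on chow (3 arrays). Each diet lasted 12 weeks. Wild types and knockouts are described as purchased lines bred in 1 facility, with no statement that they were littermates or that an array held 1 animal, so the p-values below describe the spread between arrays. Values are log2 expression as the authors normalised it with RMA, and a difference of 1 is a 2-fold difference.

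Leucine, isoleucine and valine share the opening steps of their breakdown. A mitochondrial aminotransferase removes the amino group, and the branched-chain ketoacid dehydrogenase complex, BCKDH, then commits the carbon skeleton irreversibly. After that the paths part, and each ends in acetyl-CoA, acetoacetate or propionyl-CoA. Adipocytes carry out these steps at high rates, and their carbon is used there for making fatty acids.

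On the arrays the median over all genes lay between 6.56 and 6.69, and the 10 enzymes read 7.89 to 11.41 on every array. Arrays of 1 group correlated at 0.993 to 0.997 across genes. The targeted gene P2rx7 had 1 probe set, and where it lies with respect to the targeted allele was not known, so it checks nothing about the labels. P2rx7 read 8.90 to 9.14 in knockout and 9.36 to 9.69 in wild-type mice fed the high-fat diet, and 7.90 to 8.23 in knockout and 7.91 to 8.41 in wild-type mice on chow.

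All 10 enzymes fell with the high-fat diet in both genotypes. The log2 difference between high-fat diet and chow lay between -1.70 and -0.82 in knockout mice (median -1.10) and between -1.67 and -0.91 in wild-type mice (median -1.24), against medians over all genes of -0.06 and -0.03 for the same comparisons. Every enzyme passed in limma at 0.05 after Benjamini-Hochberg adjustment across the 18820 genes, with adjusted p of at most 0.000293 in knockout mice and 2.8e-05 in wild-type mice. Of all genes, 19.7% passed as lower in knockout mice and 18.1% in wild-type mice. For each enzyme every high-fat array lay below every chow array of its genotype, a pattern that 25.6% of genes showed in knockout and 22.5% in wild-type mice. Since the arrays read whole tissue, fewer cells that hold these transcripts and less RNA per cell cannot be told apart for any value given here.

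**Figure D1:**
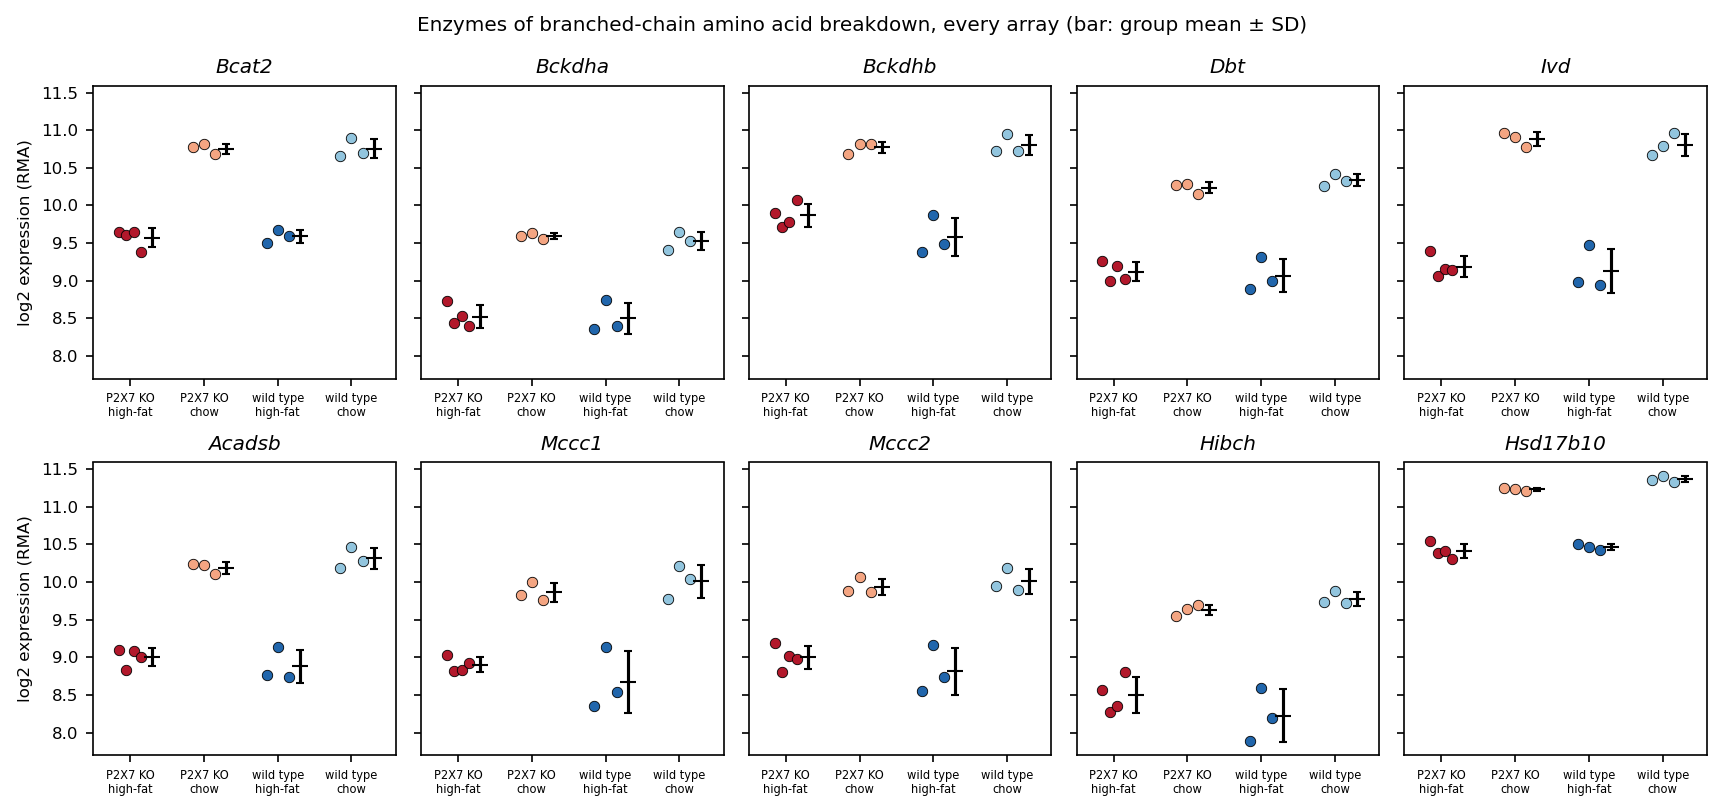
Log2 expression (RMA) of the 10 enzymes on each array, by group; points are arrays and the black bar gives the group mean with its SD (n = 4 for P2X7 knockout mice fed the high-fat diet, 3 for the other groups). In all 10 panels the high-fat arrays of a genotype lie below its chow arrays.

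The aminotransferase came first. Bcat2, the mitochondrial enzyme that takes the amino group off all 3 amino acids, read 9.65, 9.61, 9.65 and 9.38 in knockout mice fed the high-fat diet, against 10.77, 10.81 and 10.68 in knockout mice on chow. In wild-type mice Bcat2 read 9.50, 9.68 and 9.59 on high-fat diet and 10.66, 10.90 and 10.70 on chow. The diets were far apart in either genotype, and the 2 genotypes covered nearly the same range on each diet. The log2 difference of Bcat2 was -1.18 ± 0.08 in knockout mice (limma SE, adjusted p 2.68e-07) and -1.16 ± 0.09 in wild-type mice (adjusted p 3.33e-07), so that the high-fat level stood at 44.1% and 44.6% of the chow level.

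Of the BCKDH complex, the list holds the decarboxylase subunits Bckdha (alpha) and Bckdhb (beta) and the acyltransferase core Dbt. Bckdha read 8.73, 8.44, 8.53 and 8.40 in knockout mice fed the high-fat diet, against 9.60, 9.64 and 9.56 on chow, and 8.36, 8.74 and 8.40 in wild-type mice fed the high-fat diet, against 9.41, 9.65 and 9.53 on chow. Its log2 difference was -1.07 ± 0.10 in knockout mice (adjusted p 2.85e-06) and -1.03 ± 0.11 in wild-type mice (adjusted p 5.72e-06). High-fat levels of Bckdha were thus close to 1 log2 unit under chow in either genotype.

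Bckdhb read 9.90, 9.72, 9.78 and 10.07 in knockout mice fed the high-fat diet and 10.69, 10.81 and 10.82 on chow, and in wild-type mice 9.38, 9.87 and 9.49 on high-fat diet and 10.72, 10.95 and 10.73 on chow. Knockout mice fed the high-fat diet sat mostly above their wild-type counterparts, with 1 wild-type array inside their range. The diet difference of Bckdhb was -0.90 ± 0.11 in knockout mice (adjusted p 3.73e-05) and -1.22 ± 0.12 in wild-type mice (adjusted p 3.83e-06). Dbt read 9.26, 9.0, 9.20 and 9.03 in knockout mice fed the high-fat diet, against 10.27, 10.29 and 10.15 on chow, and 8.89, 9.32 and 9.0 in wild-type mice fed the high-fat diet, against 10.26, 10.42 and 10.33 on chow. Dbt differed by -1.12 ± 0.10 in knockout mice (adjusted p 1.56e-06) and by -1.26 ± 0.10 in wild-type mice (adjusted p 7.32e-07). The 3 listed subunits of the complex were therefore all lower on the high-fat diet, each on every array. A further subunit, Dld, described below, did not pass in either genotype.

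Leucine's own branch goes through isovaleryl-CoA dehydrogenase (Ivd) and then through methylcrotonyl-CoA carboxylase, whose biotin-carrying alpha subunit is Mccc1 and whose beta subunit is Mccc2. Ivd read 9.39, 9.07, 9.15 and 9.14 in knockout mice fed the high-fat diet, against 10.96, 10.91 and 10.78 on chow, and 8.98, 9.47 and 8.94 in wild-type mice fed the high-fat diet, against 10.67, 10.79 and 10.96 on chow. It showed the largest fall of the 10 in both genotypes, -1.70 ± 0.12 in knockout mice (adjusted p 3.63e-07) and -1.67 ± 0.13 in wild-type mice (adjusted p 4.66e-07), which left 30.8% and 31.3% of the chow level. Among all 18820 genes, 0.335% fell further than Ivd in knockout mice and 0.569% in wild-type mice.

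Mccc1 read 9.03, 8.82, 8.83 and 8.92 in knockout mice fed the high-fat diet, against 9.83, 10 and 9.76 on chow, and 8.35, 9.14 and 8.54 in wild-type mice fed the high-fat diet, against 9.77, 10.21 and 10.04 on chow. Its partner Mccc2 read 9.19, 8.81, 9.02 and 8.98 in knockout mice fed the high-fat diet, against 9.88, 10.06 and 9.87 on chow, and 8.55, 9.16 and 8.74 in wild-type mice fed the high-fat diet, against 9.94, 10.19 and 9.89 on chow. Both subunits had their widest spread in wild-type mice fed the high-fat diet, where replicate 2 was the high array. Mccc1 differed between the diets by -0.96 ± 0.15 in knockout mice (adjusted p 0.000293) and by -1.33 ± 0.16 in wild-type mice (adjusted p 2.8e-05), and Mccc2 by -0.93 ± 0.13 (adjusted p 0.000102) and -1.19 ± 0.14 (adjusted p 1.84e-05).

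Isoleucine is served by Acadsb, the short/branched-chain acyl-CoA dehydrogenase, and by Hsd17b10, the dehydrogenase of its hydroxyacyl-CoA step and also a subunit of mitochondrial RNase P. Acadsb read 9.10, 8.83, 9.08 and 9.0 in knockout mice fed the high-fat diet, against 10.24, 10.22 and 10.10 on chow, and 8.77, 9.13 and 8.74 in wild-type mice fed the high-fat diet, against 10.19, 10.47 and 10.28 on chow. The difference of Acadsb was -1.19 ± 0.10 in knockout mice (adjusted p 1.4e-06) and -1.43 ± 0.11 in wild-type mice (adjusted p 3.84e-07). Both diets kept to narrow bands, well apart in either genotype.

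Hsd17b10 read 10.54, 10.39, 10.41 and 10.31 in knockout mice fed the high-fat diet, against 11.25, 11.24 and 11.21 on chow, and 10.50, 10.47 and 10.42 in wild-type mice fed the high-fat diet, against 11.36, 11.41 and 11.33 on chow. It fell least of the 10 in both genotypes, with -0.82 ± 0.05 in knockout mice (adjusted p 2.29e-07) and -0.91 ± 0.06 in wild-type mice (adjusted p 1.19e-07), and it had the smallest standard errors. On chow every knockout array of Hsd17b10, and likewise of Hibch, lay below every wild-type array, as 5.64% of all genes did.

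Valine passes through Hibch, the hydroxyisobutyryl-CoA hydrolase, which releases the free acid from coenzyme A. Hibch read 8.57, 8.27, 8.35 and 8.81 in knockout mice fed the high-fat diet, against 9.55, 9.64 and 9.69 on chow, and 7.89, 8.59 and 8.20 in wild-type mice fed the high-fat diet, against 9.73, 9.88 and 9.72 on chow. It was the most variable of the 10 in knockout mice fed the high-fat diet (SD 0.24, n = 4), and in their wild-type counterparts its SD of 0.35 came second to that of Mccc1 (0.41, n = 3). The difference of Hibch was -1.12 ± 0.15 in knockout mice (adjusted p 5.92e-05) and -1.55 ± 0.16 in wild-type mice (adjusted p 5.16e-06).

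**Figure D2:**
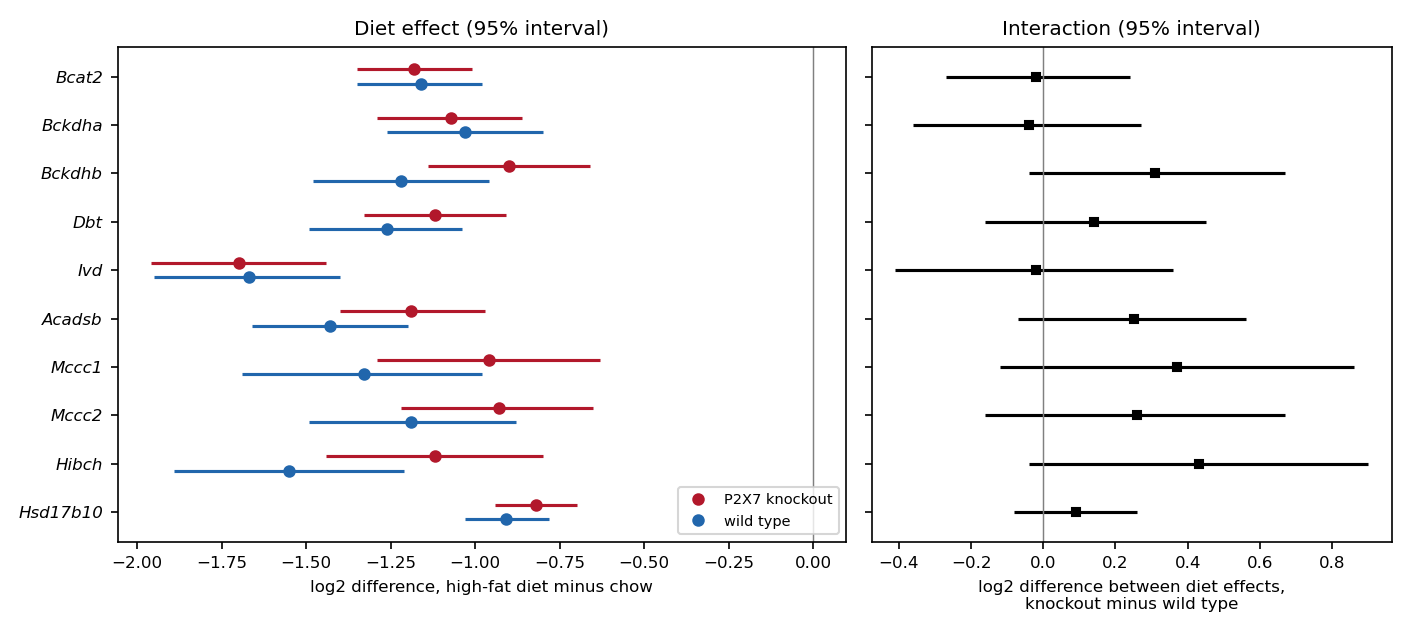
Left, log2 difference between high-fat diet and chow for each enzyme in P2X7 knockout and wild-type mice (points) with the 95% interval from limma (lines); right, the difference between both diet effects (squares) with its 95% interval. All diet intervals lie below 0, and all 10 intervals of the interaction include 0.

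Loss of P2X7 was asked about on each diet and through the interaction of diet and genotype. No enzyme passed in limma for genotype on chow (0 of 10, smallest adjusted p 0.485, where 0.133% of all genes passed), on high-fat diet (0 of 10, smallest adjusted p 0.632, 0.0425% of genes) or averaged over the diets (0 of 10, smallest adjusted p 0.672, 0.106% of genes). At an unadjusted p under 0.05, 1 of 10 differed on chow (Hsd17b10, -0.13 ± 0.06), 1 on high-fat diet (Bckdhb, 0.28 ± 0.11) and 1 in the average (Hsd17b10, -0.09 ± 0.04), where 9.62%, 7.41% and 7.23% of all genes did so. On chow the differences between knockout and wild-type mice ran from -0.15 to 0.08 (median -0.08), and on high-fat diet from -0.05 to 0.28 (median 0.09). The genotype intervals reached furthest for Hibch, from -0.04 to 0.60 on high-fat diet, against -0.19 to 0.16 for Bcat2.

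No interaction passed either (0 of 10, smallest adjusted p 0.548, and 0% of all genes), and 0 of 10 had an unadjusted p under 0.05, against 9.72% of all genes, a count that became 6 without 1 wild-type array described below. The estimates were nevertheless uneven. Hibch stood at 0.43 (95% interval -0.04 to 0.90), Mccc1 at 0.37 (-0.12 to 0.86) and Bckdhb at 0.31 (-0.04 to 0.67), all toward a smaller fall in knockout mice. Bcat2 (-0.02, interval -0.27 to 0.24), Ivd (-0.02, -0.41 to 0.36) and Bckdha (-0.04, -0.36 to 0.27) lay near 0. A miss at this threshold does not show that the diet effects were alike, since in simulated arrays the interaction recovered 46% of 1.5-fold and 86% of 2-fold changes. The simulated noise was drawn separately for each gene and array. The largest estimate here, 1.35-fold for Hibch, lay under the smallest change simulated.

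The genotype estimates on high-fat diet depended on replicate 2 of wild-type mice on that diet. This array was the highest of its group for 9 of the 10 enzymes, on average 0.26 above the group mean, with deviations up to 0.46 for Mccc1. The same array had the highest mean of its group for adipocyte markers (11.30, against 10.80 and 10.87 in the others), the lowest for macrophage markers (10.41, against 10.76 and 10.79) and the highest for liver markers (6.70, against 5.68 and 5.13). Their part in the enzyme values was not tested. Without it, Mccc1 stood 0.46 ± 0.11 higher in knockout mice fed the high-fat diet (adjusted p 0.0819), Hibch 0.46 ± 0.13 (adjusted p 0.132) and Bckdhb 0.43 ± 0.10 (adjusted p 0.0606), and 0 of 10 passed. At an unadjusted p under 0.05, 6 of 10 enzymes then differed by genotype on high-fat diet in place of 1 (Bckdhb, Mccc1, Hibch, Mccc2, Acadsb and Ivd), where 13.8% of all genes did so. The interaction without that array was 0.60 ± 0.15 for Mccc1 (adjusted p 0.101), 0.61 ± 0.18 for Hibch (adjusted p 0.16), 0.46 ± 0.13 for Bckdhb (adjusted p 0.147), 0.43 ± 0.15 for Mccc2, 0.37 ± 0.12 for Acadsb and 0.27 ± 0.11 for Dbt. These 6 had an unadjusted p under 0.05, where 13.4% of all genes did so, and 0 of 10 passed after adjustment. With any other single array left out, 0 to 2 enzymes had such a p for genotype on high-fat diet (0 without wild-type replicate 1 or 3 or knockout replicate 4 on that diet, 2 without knockout replicate 2) and 0 or 1 for the interaction (1 without knockout replicate 2 on high-fat diet). On chow the count of 1 (Hsd17b10) became 0 without wild-type replicate 1 or 2 or any 1 knockout array of that diet. Since wild-type replicate 2 on high-fat diet was highest for 9 of 10 enzymes, omitting it had to lower their wild-type mean. The enzymes also moved together on the 7 high-fat arrays (median correlation between pairs 0.69), so 6 enzymes are not 6 separate observations. Both counts of 6 are therefore a description. Over all genes, 177 (0.94%) passed for genotype on high-fat diet without wild-type replicate 2 on that diet, in place of 8. For the interaction 106 (0.563%) passed without it, in place of 0. With replicate 1 of wild-type mice on chow left out as well, Mccc1 passed for genotype on high-fat diet (0.46, adjusted p 0.0383), an alternative added after the data were seen. Over all genes, up to 81 passed as higher and up to 139 as lower for that comparison in the 3 added alternatives.

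**Figure D3:**
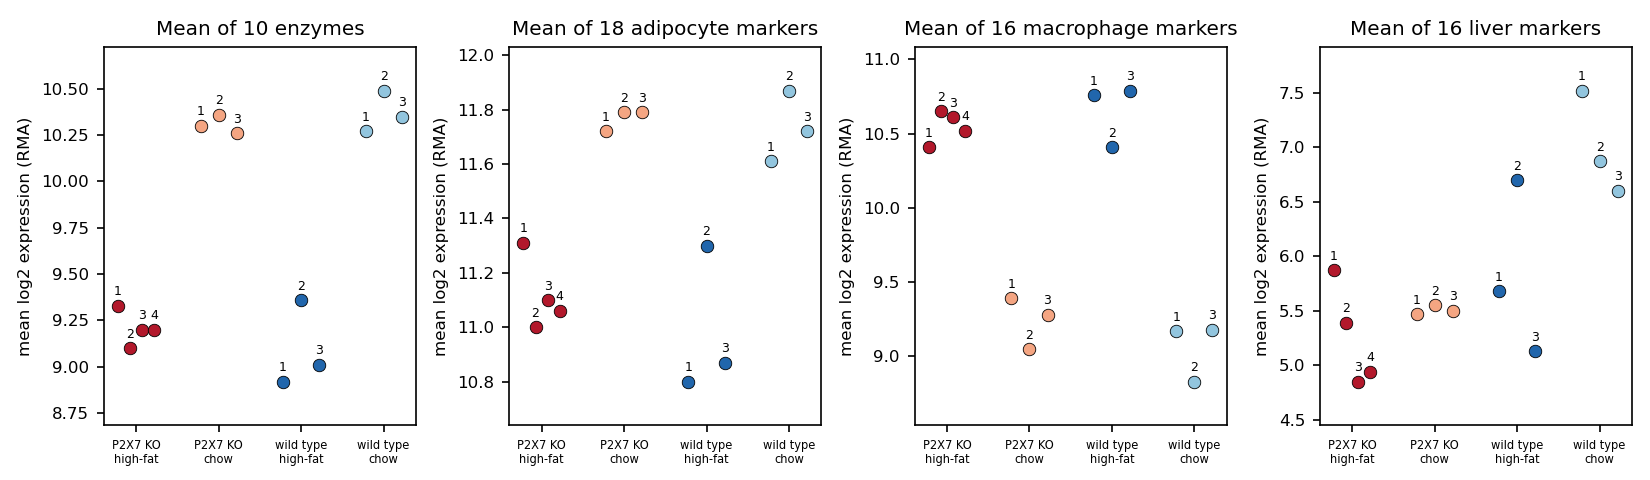
Mean log2 expression (RMA) on each array of the 10 enzymes, 18 adipocyte markers, 16 macrophage markers and 16 liver markers; points are arrays, numbered by replicate, and each panel has its own scale. Replicate 2 of wild-type mice fed the high-fat diet is the highest of its group in the enzyme, adipocyte and liver panels and the lowest in the macrophage panel.

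Beyond the 10, the pathway was followed through 26 measured genes of a further 27. Among all genes, 19.7% fell and 14.5% rose in knockout mice, and 18.1% and 17.7% in wild-type mice. Of the 26, 18 fell and 1 rose with the diet in knockout mice (median -0.42). In wild-type mice 17 fell and 2 rose (median -0.37). The gene that rose in both was Bcat1, the cytosolic counterpart of Bcat2, which read 7.78, 8.04, 7.76 and 7.53 in knockout mice fed the high-fat diet, against 6.80, 6.92 and 7.02 on chow, and 7.79, 7.99 and 7.69 in wild-type mice fed the high-fat diet, against 6.74, 6.69 and 6.67 on chow. Bcat1 rose by 0.86 ± 0.11 in knockout mice (adjusted p 4.28e-05) and by 1.12 ± 0.12 in wild-type mice (adjusted p 5.91e-06). The aminotransferase pair thus moved in opposite directions on the same arrays.

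Control of BCKDH rests on the kinase Bckdk, which phosphorylates and inhibits it, and the phosphatase Ppm1k, which reverses this. Ppm1k read 6.56, 6.55, 6.70 and 6.86 in knockout mice fed the high-fat diet, against 7.58, 7.78 and 7.32 on chow, and 6.65, 6.66 and 6.60 in wild-type mice fed the high-fat diet, against 7.45, 7.75 and 7.96 on chow. Ppm1k fell by 0.89 ± 0.13 on the log2 scale in knockout mice (adjusted p 0.000119) and by 1.09 ± 0.14 in wild-type mice (adjusted p 3.29e-05). Bckdk differed by -0.27 ± 0.08 in knockout mice (adjusted p 0.0123) and by -0.26 ± 0.08 in wild-type mice (adjusted p 0.0212). The call of Bckdk was lost in wild-type mice when these were fitted alone, without replicate 2 or 3 on chow or replicate 1 or 3 on high-fat diet, and in knockout mice without replicate 2 on chow. Dld, the dihydrolipoamide dehydrogenase that BCKDH shares with the pyruvate and oxoglutarate dehydrogenases, did not pass, at -0.08 ± 0.11 in knockout mice (adjusted p 0.622) and -0.25 ± 0.11 in wild-type mice (adjusted p 0.112), although in wild-type mice it passed under 4 of 24 alternative settings (lowest adjusted p 0.045). Slc25a44, the carrier that brings branched-chain amino acids into mitochondria, differed by -0.57 ± 0.12 in knockout mice (adjusted p 0.00197) and by -0.38 ± 0.13 in wild-type mice (adjusted p 0.0298), the wild-type call being lost under the same settings as that of Bckdk. With the adipocyte-marker scaling described below, Bckdk and Slc25a44 turned positive in both genotypes, as did Bckdk in both and Slc25a44 in wild-type mice with the scaling to the tricarboxylic acid cycle. The medians of all genes were positive on these scales too, at 0.60 and 0.71 for adipocyte markers and 0.25 and 0.39 for the cycle (knockout, wild type).

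Further down the pathway, Aldh6a1, the methylmalonate semialdehyde dehydrogenase of valine breakdown, read 9.85 to 10.26 in knockout mice fed the high-fat diet, against 11.26 to 11.37 on chow, and 9.59 to 10.12 in wild-type mice fed the high-fat diet, against 11.26 to 11.39 on chow. It differed by -1.27 ± 0.12 in knockout and by -1.55 ± 0.13 in wild-type mice. Propionyl-CoA carboxylase beta (Pccb) fell by 1.04 ± 0.11 in knockout mice and 1.19 ± 0.11 in wild-type mice, methylmalonyl-CoA mutase (Mmut) by 0.89 ± 0.10 and 0.98 ± 0.10, and the enoyl-CoA hydratase Echs1 by 0.73 ± 0.10 and 0.94 ± 0.10. Ehhadh, a peroxisomal enzyme of fatty acid oxidation, differed by -1.0 ± 0.27 and -1.11 ± 0.29, and its call in knockout mice was lost without replicate 2 on chow (-0.75, adjusted p 0.0684). For Abat, the aminotransferase of the semialdehyde side branch, the brighter probe set gave -1.37 ± 0.20 and -0.90 ± 0.21, whereas its dimmer probe set gave -0.07 and -0.09, neither past the threshold.

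**Figure D4:**
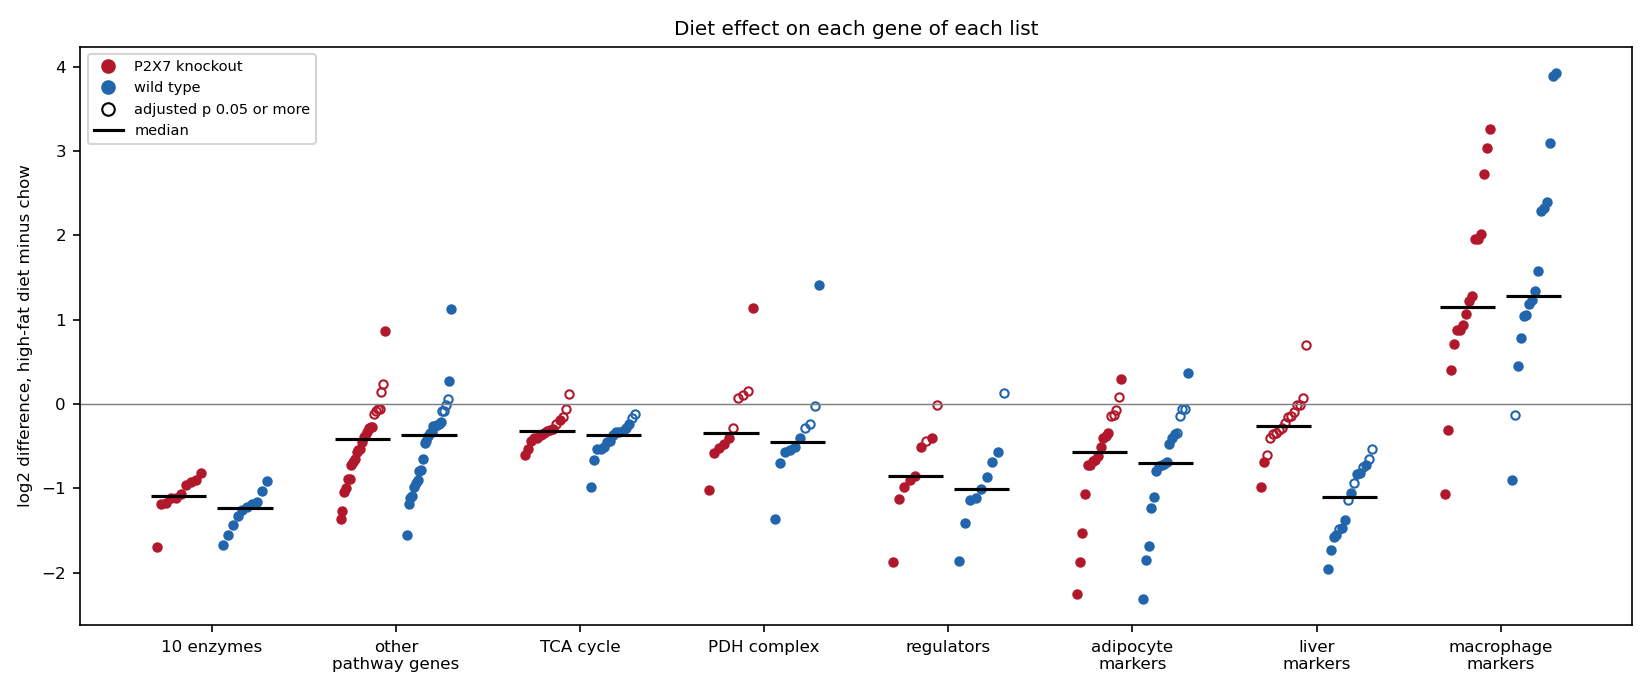
Log2 difference between high-fat diet and chow (vertical axis) for each gene of the 10 enzymes, the other pathway genes, the tricarboxylic acid (TCA) cycle, the pyruvate dehydrogenase (PDH) complex with its kinases and phosphatases, regulators, and markers of adipocytes, liver and macrophages, in P2X7 knockout and wild-type mice. Filled points passed at an adjusted p under 0.05, open points did not, and bars are medians; the 10 enzymes all lie below 0, with medians of -1.10 in knockout and -1.24 in wild-type mice.

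Other mitochondrial oxidation was read through 15 measured genes of the tricarboxylic acid cycle. Of all genes, 19.7% fell in knockout and 18.1% in wild-type mice. Of the 15, 11 fell in knockout mice (median -0.32) and 13 in wild-type mice (median -0.37), and 0 rose in either. Among them Sdhb, the iron-sulfur subunit of succinate dehydrogenase, differed by -0.53 ± 0.06 in knockout and -0.54 ± 0.07 in wild-type mice. Differences in the cycle ran from -0.61 to 0.12 in knockout mice and from -0.98 to -0.12 in wild-type mice. The wild-type range reached into that of the 10 enzymes (-1.67 to -0.91), whereas the knockout range stayed above theirs (-1.70 to -0.82). To set the enzymes against that cycle directly, the mean of its 15 genes was subtracted from every array, a scaling added after the data were seen. All 10 enzymes then remained lower on high-fat diet, by -1.39 to -0.51 in knockout mice and -1.26 to -0.49 in wild-type mice, where 5.81% and 5.16% of all genes passed as lower. Ivd was again the lowest (-1.39 ± 0.11 and -1.26 ± 0.12). This scaling moved the median of all genes up by 0.30 in knockout and 0.42 in wild-type mice.

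The pyruvate dehydrogenase complex, built like BCKDH, had 5 fallen and 1 risen of 10 measured genes in knockout mice and 6 fallen and 1 risen in wild-type mice, with its kinases apart: Pdk2 fell by 1.02 ± 0.11 and 1.37 ± 0.11 while Pdk4 rose by 1.14 ± 0.21 and 1.41 ± 0.22. Of 9 regulators of adipocyte metabolism, 7 fell in knockout and 8 in wild-type mice. Klf15, a transcription factor known to control amino acid breakdown in muscle and liver, read 6.53 to 6.89 in knockout mice fed the high-fat diet, against 8.31 to 8.84 on chow, and 6.25 to 6.94 in wild-type mice fed the high-fat diet, against 8.26 to 8.63 on chow. It fell by 1.88 ± 0.17 and 1.86 ± 0.18. Genes of amino acid sensing were mixed, with 1 risen and 1 fallen of 7 in knockout mice and 3 risen and 2 fallen in wild-type mice, Mtor being lower in both (-0.39 ± 0.07 and -0.29 ± 0.07). Of all genes, 14.5% rose and 19.7% fell in knockout mice, and 17.7% and 18.1% in wild-type mice. The knockout counts for amino acid sensing were near those shares.

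Markers of the cells in the tissue moved with the same diet. Of all genes, 19.7% fell and 14.5% rose in knockout mice, and 18.1% and 17.7% in wild-type mice. Of 18 adipocyte markers, 12 fell and 1 rose in knockout mice (median -0.57) and 13 fell and 1 rose in wild-type mice (median -0.70). Their mean lay at 11 to 11.31 in knockout mice fed the high-fat diet, against 11.72 to 11.79 on chow, and at 10.80 to 11.30 in wild-type mice fed the high-fat diet, against 11.61 to 11.87 on chow. Single adipocyte markers differed by -2.25 to 0.29 in knockout mice and by -2.31 to 0.37 in wild-type mice. The lowest of these values lay below the lowest of the enzymes (-1.70 and -1.67). Of 16 macrophage markers, 14 rose and 2 fell in knockout mice (median 1.14) and 14 rose and 1 fell in wild-type mice (median 1.29), with list means of 10.41 to 10.65 against 9.05 to 9.39 in knockout mice and 10.41 to 10.79 against 8.83 to 9.18 in wild-type mice, high-fat diet before chow. The part of these shifts in the enzyme values was not tested. With the mean of the adipocyte markers subtracted from every array, also added after the data were seen, 9 of the 10 enzymes passed as lower in each genotype, where 2.01% of all genes did so in knockout and 2.09% in wild-type mice. Values ran from -1.05 for Ivd to -0.17 for Hsd17b10 in knockout mice and from -0.93 to -0.17 in wild-type mice, and Hsd17b10 was the enzyme that did not pass (adjusted p 0.207 and 0.237). That scaling moved the median of all genes up by 0.65 and 0.74. Of the other pathway genes named above, Ppm1k (-0.24 in knockout and -0.34 in wild-type mice), Ehhadh (-0.35 and -0.37), Mmut (-0.24 and -0.24) and Echs1 (-0.08 and -0.20) then no longer passed in either genotype, and Abat no longer passed in wild-type mice (-0.16). Dld passed as higher on that scale (0.57 and 0.49, adjusted p 0.000665 and 0.00276).

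Liver is rich in most of these enzymes other than Bcat2, and liver transcripts were present on some arrays. The mean of 16 liver markers was 4.85 to 5.87 in knockout mice fed the high-fat diet and 5.47 to 5.55 on chow, and 5.13 to 6.70 in wild-type mice fed the high-fat diet and 6.60 to 7.52 on chow, with Alb between 7.54 and 11.51. With the diet 2 of 16 liver markers fell in knockout mice (median -0.26) and 10 of 16 in wild-type mice (median -1.10), where 19.7% and 18.1% of all genes fell. In knockout mice the liver means of both diets overlapped only through replicate 1 on high-fat diet (5.87). Replicates 2, 3 and 4 on that diet (5.39, 4.85 and 4.94) lay below every knockout chow array. All 10 enzymes were lower by 0.82 or more on the log2 scale in knockout mice. On chow the liver markers also differed by genotype (median -1.45, with 0 of 16 past the threshold), and the enzymes differed by a median of -0.08. The part of liver transcripts in the enzyme values was not tested. Both diets gave low means for skeletal muscle (4.89 to 5.18) and epididymis (3.35 to 3.80) markers. Endothelial markers fell in 2 of 10 cases in knockout mice, near the share of all genes (19.7%), and in 7 of 10 in wild-type mice, against 18.1% (medians -0.23 and -0.46). The 7 fibroblast markers were mixed (medians 0.02 and -0.02). Mesothelial markers fell in 8 of 8 cases in either genotype (medians -1.05 and -1.14), and the part of these lists in the enzyme values was not tested.

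Because the enzymes moved together, the upstream sequence of their genes was searched for the same short motifs. RefSeq promoter windows of 300 bases across a start (GRCm38.p6) were at hand for 9 of the 10 genes, 11 starts in all. Both strands were searched for the direct repeat bound by PPAR with RXR, for TNAAGGTCA, bound by oestrogen-related receptors, and for the NRF1 motif. None of the 11 matched any of these, which 0.0396%, 1.28% and 4.6% of 32851 promoters did. GGGCGG, bound by SP and KLF factors, was in 5 of the 11 (35.7% of all promoters), and CCAAT, bound by NF-Y, in 6 (37.4%). No match of 1 motif overlapped a match of another.

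The genes Ivd, Mccc1 and Mccc2 of the leucine branch held CCAAT repeatedly. Ivd had 4 matches, and Mccc1 and Mccc2 had 3 each, of which a pair in Mccc2 overlaps as CCAATTGG. At least 3 matches occurred in 3.37% of all promoters. That cut-off was taken from the counts just given, so the share is a description and not a test. The 150 bases before the start are printed 5′ to 3′ on the gene's strand to show this arrangement, with matches to CCAAT or its complement ATTGG, and to GGGCGG or its complement CCGCCC, in capitals. A match describes letters and not binding.
Ivd, chr2:118861844-118861993, plus strand: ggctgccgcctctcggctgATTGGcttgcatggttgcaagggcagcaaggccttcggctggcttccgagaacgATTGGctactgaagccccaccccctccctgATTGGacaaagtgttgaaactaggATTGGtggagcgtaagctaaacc
Mccc1, chr3:36000679-36000828, minus strand: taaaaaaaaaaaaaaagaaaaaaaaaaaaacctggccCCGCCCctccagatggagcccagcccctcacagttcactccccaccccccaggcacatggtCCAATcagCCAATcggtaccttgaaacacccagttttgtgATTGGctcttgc
Mccc2, chr13:100015640-100015789, minus strand: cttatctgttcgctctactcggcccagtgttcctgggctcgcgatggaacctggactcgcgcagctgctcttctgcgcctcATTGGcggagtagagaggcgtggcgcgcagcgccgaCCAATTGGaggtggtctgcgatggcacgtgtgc

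Lastly, genes were ranked by how closely their values over the 13 arrays, centred on their own mean, followed the mean of the 10 enzymes. The nearest outside the list was Adhfe1, the hydroxyacid-oxoacid transhydrogenase of mitochondria, with a root mean square difference of 0.045 log2 units, close to that of Dbt (0.0472), the enzyme nearest to that mean, of which it is itself a part. It was followed by Pccb (0.0668), Ctdspl (0.0683), Retn (0.0709), which encodes the adipocyte hormone resistin, and Zfp641 (0.0772). Of the enzymes, Ivd lay furthest from the mean (0.269), then Hsd17b10 (0.2) and Hibch (0.156). Adhfe1 read 10.90, 10.54, 10.62 and 10.65 in knockout mice fed the high-fat diet, against 11.75, 11.80 and 11.68 on chow, and 10.28, 10.76 and 10.47 in wild-type mice fed the high-fat diet, against 11.72, 11.90 and 11.83 on chow. These genes were picked for that pattern, so their diet differences are a description.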

How the data were processed

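Total RNA (100 ng) from epididymal fat was hybridised to 13 arrays, with RNA integrity numbers above 8 per the labels. The deposited values are log2 expression, 1 per probe set and array, made by the authors with RMA per the submitters' processing notes (sources used here give no version). No further normalisation was applied. The table held 35556 probe sets with values from 1.70 to 13.86, of which 21218 were paired with 1 gene symbol, 1881 with several and 12457 with none, and only the first kind was used. The probe set with the highest mean stood for a gene, giving 18820 genes, of which 18790 matched RefSeq (GRCm38.p6) by Entrez ID. Mut was matched as Mmut.

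One limma 3.58.1 model (R 4.3.3, package data.table, version 1.17.8) with a mean per group and an intensity trend was fitted to all arrays and genes. Adjusted p-values are Benjamini-Hochberg over all 18820 genes of a contrast, called at 0.05, and ± gives limma's standard error. The enzymes and lists were chosen with earlier results of these data known, and lists are described by counts and medians without a test. Named were the 10 enzymes, 5 pathway genes always, the 6 others with the largest called diet effect in wild-type mice, and the 5 nearest patterns. From each further list up to 3 genes with the smallest p in wild-type mice could be named (Sdhb, Klf15, Pdk2, Pdk4, Mtor), and Alb was named after its values were seen. The steps were tested on simulated arrays in which 200 genes changed by 1.5-fold or 2-fold. Precision is limited by the number of arrays. The tests were repeated with other scalings, variance models, filters on dim genes, probe sets, weights per array, a minimum fold, only the compared groups or the replicate block, and with every array omitted once. Python 3.11.15 (pandas 2.3.3, numpy 2.4.6) and matplotlib 3.10.9 made the figures.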

Additional observations from a re-analysis of the deposited data

Results flagged for a closer look

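Among 25 named genes, the 4 knockout arrays on high-fat diet were checked for 1 array far from the rest by Dixon's test at its 95% level, and 3 genes met it, where chance flags about 1 in 20. Bcat2 read 9.38 on replicate 4, against 9.61 to 9.65 on the other 3. Bckdk read 9.25 on the same array, against 9.44 to 9.47. Ctdspl read 8.76 on replicate 1, with the others at 8.51 to 8.53.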

How the results depend on the processing

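Across 24 alternative settings, of which 13 left out 1 array each, all 10 enzymes passed as lower on high-fat diet in knockout and in wild-type mice, and 0 of 10 passed for genotype on chow or on high-fat diet. Not all settings could alter the diet calls. Each enzyme has 1 probe set, so the probe-set settings left its log2 differences unchanged. All 10 already differed by at least 1.5-fold. Leaving out an array of the other genotype also left the log2 difference as it was. In the 23 settings that gave them, 0 of 10 passed for genotype averaged over the diets and for the interaction. Ivd ranged from -1.77 to -1.66 in knockout mice and from -1.84 to -1.58 in wild-type mice. Of 3 added alternatives, leaving out replicate 1 of wild-type mice on chow with replicate 2 on high-fat diet gave 1 enzyme for genotype on high-fat diet (Mccc1). Over all genes, the 3 gave up to 81 as higher and up to 139 as lower for that comparison. Requiring a 1.5-fold difference kept all 10 enzymes in both genotypes but left 1335 risen and 1139 fallen of 2721 and 3708 genes in knockout mice, and 1648 and 1379 of 3327 and 3409 in wild-type mice. Relative to adipocyte markers, 15991 genes rose and 379 fell in knockout mice and 16384 and 394 in wild-type mice, so that 97.7% of calls were rises in each, against 42.3% and 49.4% as reported. Relative to the tricarboxylic acid cycle, 8962 rose and 1094 fell in knockout mice (89.1% rises) and 13164 and 972 in wild-type mice (93.1%). Bckdk then stood at 0.38 and 0.48 relative to adipocyte markers and at 0.03 and 0.16 relative to the cycle (knockout, wild type), and Slc25a44 at 0.08 and 0.36 relative to adipocyte markers and, in wild-type mice, at 0.04 relative to the cycle. The enzymes were set against the same means. Subtraction moved the median of all genes up by 0.65 and 0.74 for adipocyte markers and by 0.30 and 0.42 for the cycle (knockout, wild type). Counts over all genes for genotype were small and moved: with arrays left out in turn, 2 to 30 passed as lower and 0 to 14 as higher on chow, 4 to 114 and 1 to 63 on high-fat diet, 7 to 30 and 3 to 32 in the average, and 0 to 85 and 0 to 21 for the interaction. The other settings gave 5 to 19 lower and 1 to 10 higher on chow and 0 to 9 and 0 to 3 on high-fat diet. Replicate numbers are shared between groups. Of same-numbered pairs, 5 of 18 correlated above 0.1 in their deviations (median 0.01), and of differently numbered pairs 10 of 45 (median -0.01). The numbers were therefore not taken to pair the mice. With the replicate block, in which knockout replicate 4 on high-fat diet has no partner and drops out, 10 of 10 enzymes passed as lower in both genotypes and 0 for genotype or interaction, while all genes lower and higher numbered 3140 and 2457 in knockout mice, 3340 and 3250 in wild-type mice, 5 and 1 for genotype on chow and in the average, and 0 and 0 on high-fat diet. Dld passed in wild-type mice with the block (-0.25, adjusted p 0.045).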
